A study of Mus musculus with 18 samples.

Results

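The acute phase proteins described here were the 10 genes Saa1, Saa2, Saa3 and Saa4 (serum amyloid A), Orm1, Orm2 and Orm3 (orosomucoids), Lcn2 (lipocalin 2), Hp (haptoglobin) and Apcs (serum amyloid P component). They were taken by gene symbol from the 25266 genes listed for the liver RNA of 18 male C57BL/6 mice, by a rule that used no threshold on their values; the set was drawn up with earlier results of these data known. FF mice carried Ppp6r3 fl/fl alleles, in which the gene for SAPS3, a regulatory subunit of protein phosphatase 6, stays intact, and LKO mice carried the same alleles with Alb-Cre, which is active in hepatocytes. From 8 weeks of age both genotypes were fed for 16 weeks either a control diet (CD, 10 kcal% fat, 4 FF and 4 LKO mice) or a high fat diet (HFD, 32.5 kcal% fat, 5 FF and 5 LKO mice). No group carried Alb-Cre without the fl/fl alleles, so Cre itself and the loss of SAPS3 cannot be told apart.

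The acute phase response is the change in plasma proteins that the liver makes during infection, injury or inflammation. Interleukin 6 and interleukin 1 reach the hepatocyte, act through STAT3, NF-kB and C/EBP factors, often together with glucocorticoids, and raise the RNA of positive acute phase proteins while negative ones such as albumin fall. In the mouse, Saa1 and Saa2 are the strongly inducible members that ride on high-density lipoprotein, haptoglobin binds free haemoglobin, orosomucoids carry small lipophilic compounds, lipocalin 2 binds iron-loaded bacterial siderophores, and serum amyloid P component is a pentraxin.

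Values were RPKM, in which the reads of a gene are divided by its length and by the sequencing depth of the mouse, and differences were taken on log2(RPKM + 1). A gene was called where limma gave a fold change above 1.5 and a Benjamini-Hochberg adjusted p under 0.05 over 11090 genes, those that averaged 0.5 RPKM or more, a filter that all 10 members passed. Depth, read from the steps of low values, was 23.4 to 37.0 M reads per mouse, with group medians of 24.9 to 27.1 M reads. Ppp6r3, the check of the knockout, was 8.38 to 11.0 RPKM in FF CD mice and 3.88 to 4.08 RPKM in LKO CD mice, a called log2 difference of -1.04 (SE 0.08, limma adjusted p = 6.72e-07). Under HFD it was 7.55 to 8.82 RPKM in FF and 4.22 to 4.87 RPKM in LKO mice, a called difference of -0.72 (SE 0.07, adjusted p = 7.14e-06). The 6 hepatocyte markers summed to 43463 to 59682 RPKM per mouse. The p-values measure the spread between these mice, and in whole liver fewer cells of a type and less RNA per cell cannot be told apart.

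Orm3 was the only member that passed the test, in 2 comparisons. It rose with HFD in FF mice, from a mean of 0.850 to 3.51 RPKM, and it was lower in LKO than in FF mice under HFD, at 0.810 against 3.51 RPKM. Saa1, Saa2, Lcn2 and Orm2 had fitted differences of 1.80 to 2.95 with the diet in LKO mice and did not pass, and each of them ran over more than 10-fold between LKO HFD mice. The same few mice were high for most of the 10 genes.

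With HFD against CD in FF mice 1 of the 10 members was called, while 6.6% of all genes tested were. The FF groups did not overlap for the same 1 member, and did not overlap for 18.3% of all genes. With HFD against CD in LKO mice limma called 0 of 10 members and 1.27% of all genes, and 6 members had an unadjusted p under 0.05. The LKO groups did not overlap for 1 member, Orm2, and for 9.04% of all genes. Between LKO and FF mice under CD limma called 0 of 10 members and 0.225% of all genes, with 1 member, Orm1, at an unadjusted p under 0.05. Those groups did not overlap for 2 members, Orm1 and Orm3, and for 5.07% of all genes. Between LKO and FF mice under HFD 1 member was called, against 2.07% of all genes, and the groups overlapped for all 10 members while they did not for 4.67% of all genes. For the difference of the HFD response between the genotypes limma called 0 of 10 members and 2.44% of all genes, and 0 members had an unadjusted p under 0.05. The share of all genes at an unadjusted p under 0.05 was not taken, so such counts, here and below, stand without a background.

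The direction of the members as a list is given by their medians. The median log2 difference over the 10 genes was 0.51 with HFD in FF mice, where 8 were above 0, and 0.62 with HFD in LKO mice, where 9 were above 0. Over all genes tested these medians were 0.07 and 0.07. Between LKO and FF mice the members' median was -0.51 under CD, with 3 of 10 above 0, and 0.31 under HFD, with 6 of 10 above 0, against 0.03 and 0.03 over all genes. The comparisons share groups (each group stands in 2 of them), so these medians are not independent of each other. Nor are the members independent: Saa1 and Saa2 are near copies, and the same few mice were high for most of the 10 genes.

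**Figure D1:**
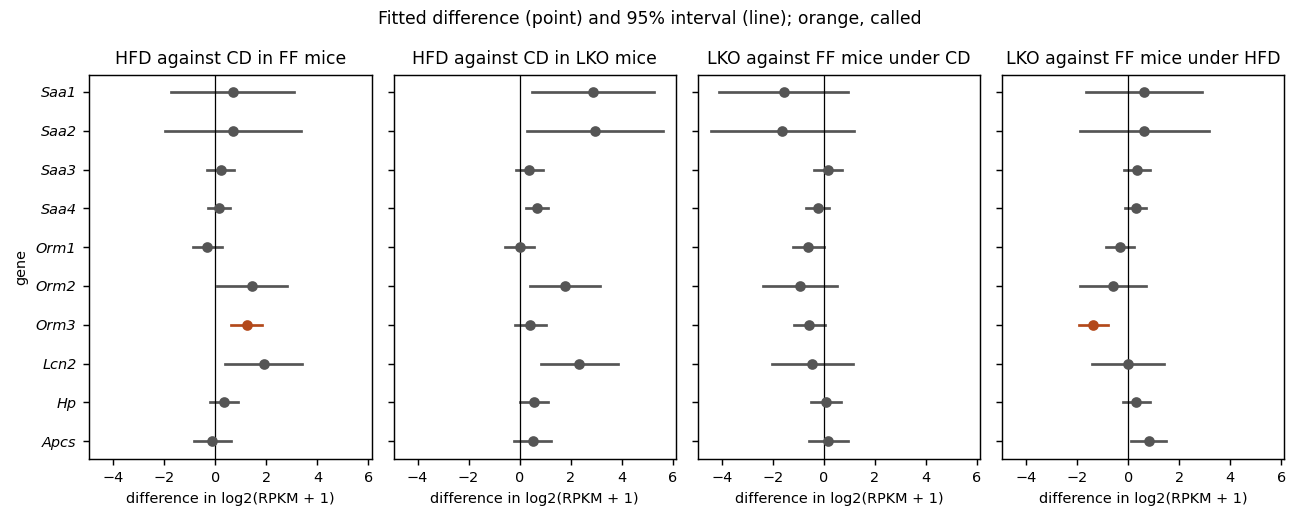
Fitted difference in log2(RPKM + 1) (point) with its 95% interval (line) for each of the 10 genes in the 4 comparisons between groups, with called genes in orange. Orm3 is the only called gene, with 1.22 in FF mice on HFD against CD and -1.36 in LKO against FF mice under HFD, and the widest intervals belong to Saa1 and Saa2.

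The largest feature of these genes was the spread between mice that shared a genotype and a diet. Within groups, the standard deviation of Saa2 was 2.15 on the log2 scale and that of Saa1 was 1.93, which ranked the 4th and the 5th highest among 11090 genes. Lcn2 (1.22) ranked the 15th and Orm2 (1.10) the 19th. The median gene had a standard deviation of 0.16. The other members ranked from 142 (Apcs, 0.58) to 779 (Saa4, 0.33), so each of the 10 stood among the 779 most variable genes. Between the highest and the lowest of the 18 mice, RPKM differed 165-fold for Saa2, 108-fold for Saa1, 48.2-fold for Lcn2 and 23.6-fold for Orm2, at least 53.0-fold for Orm3 (3 mice lay under a floor of 3 reads per mouse and were set to it), and by 3.33-fold to 4.10-fold for the other 5. The groups took up most of the variation of Orm3 alone: 27.3% of its variation on the log2 scale lay within groups, against 50.6% for Lcn2, 54.3% for Orm2, 59.6% for Saa4 and 68.1% to 75.7% for the other 6. For the median gene of all genes tested this share was 68.0%, so by this measure the members were not set apart from other genes.

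**Figure D2:**
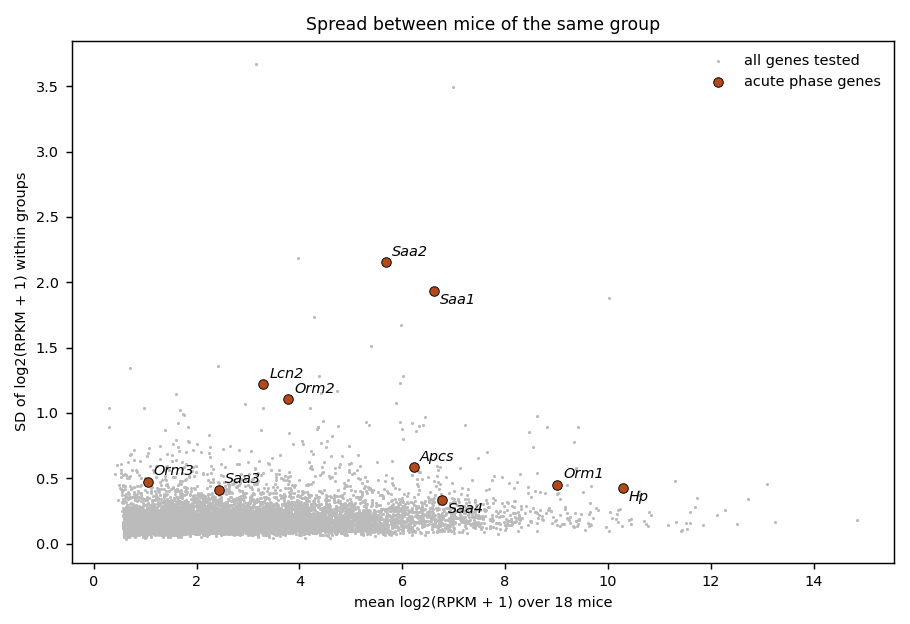
Standard deviation of log2(RPKM + 1) between mice of the same group (vertical axis) against the mean log2(RPKM + 1) over 18 mice (horizontal axis), with 1 grey point for each of the 11090 genes tested and the 10 acute phase genes in orange. Saa2 at 2.15 and Saa1 at 1.93 lie far above the median gene at 0.16, and Lcn2 and Orm2 stand next.

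A small number of mice carried the high values. LKO HFD mouse 5 was among the 5 highest of the 18 mice for all 10 members, and among the 3 highest for 8 of them. LKO HFD mouse 2 was among the 5 highest for 8 members, and FF CD mouse 2 and FF HFD mouse 1 for 7 members each. At the other end, LKO CD mouse 3 was among the 5 lowest for 9 members, and FF CD mouse 4 and LKO CD mouse 1 for 7 each. High mice therefore occurred in 3 of the 4 groups, and FF CD held a high mouse and a low mouse side by side. The 10 members together took 0.406% to 1.53% of a mouse's summed RPKM, lowest in an FF CD mouse and highest in an LKO HFD mouse.

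**Figure D3:**
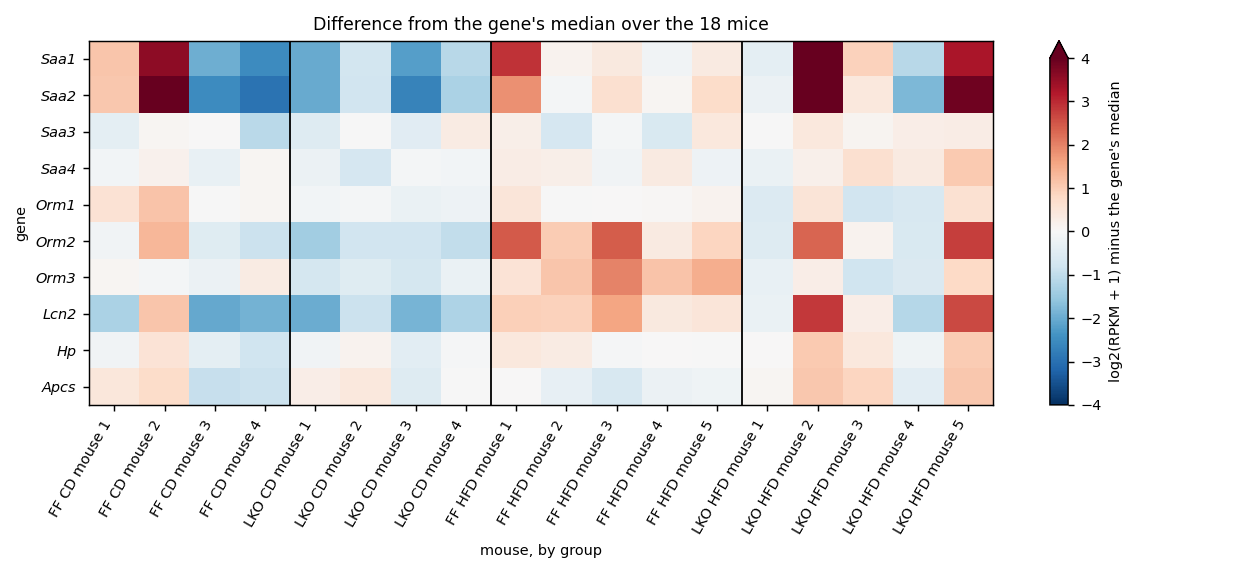
Difference of log2(RPKM + 1) from each gene's median over the 18 mice, with genes in rows and mice in columns ordered by group (black lines separate FF CD, LKO CD, FF HFD and LKO HFD; the colour scale ends at 4, and darker red cells lie at or above it). FF CD mouse 2, FF HFD mouse 1 and LKO HFD mice 2 and 5 are red for most genes, and Orm3 is red across the FF HFD mice.

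Over the 18 mice and after subtraction of the group means, the 21 pairs among Saa1, Saa2, Orm1, Orm2, Lcn2, Hp and Apcs had Pearson's r of 0.60 to 0.98 (median 0.88). The 24 pairs that include Saa3, Saa4 or Orm3 had r of -0.14 to 0.54 (median 0.34). These 7 genes were singled out after their values were seen, and all 10 share the same libraries, so the coefficients are a description. Removal of the group means changed the pairs unequally. The r of Orm1 with Hp was 0.43 over all mice (Spearman's rho 0.36), 0.53 without the 2 mice farthest from the Orm1 median, and 0.86 within groups. That of Saa1 with Orm2 was 0.84 both over all mice and within groups, and that of Orm2 with Orm3 fell from 0.66 to 0.48.

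Serum amyloid A genes lie side by side on mouse chromosome 7. By the GENCODE vM21 annotation of GRCm38, Saa3 spans chr7:46711998-46715700, Saa4 chr7:46727998-46732603 and Saa1 chr7:46740497-46742980, all on the minus strand, and Saa2 spans chr7:46751790-46754313 on the plus strand. The coding sequences of Saa1 and Saa2, each 369 bases, were identical at 95.1% of positions, and their transcripts share a stretch of 99 bases, so reads could be split between them in either direction. RefSeq lists each of these 2 symbols as an older name of the other, so the assignment of a value to Saa1 or to Saa2 is uncertain. Their promoters are printed because these 2 genes had the highest r of all pairs of members. The bases directly before each start (RefSeq, GRCm38.p6) read 5′ to 3′ on the gene's own strand as follows, with Saa1 from chr7:46742981-46743230 on the minus strand and Saa2 from chr7:46751583-46751832 on the plus strand, and with matches to TTGCNNAA, a core letter pattern of C/EBP sites searched on both strands, in capitals.
Saa1 promoter: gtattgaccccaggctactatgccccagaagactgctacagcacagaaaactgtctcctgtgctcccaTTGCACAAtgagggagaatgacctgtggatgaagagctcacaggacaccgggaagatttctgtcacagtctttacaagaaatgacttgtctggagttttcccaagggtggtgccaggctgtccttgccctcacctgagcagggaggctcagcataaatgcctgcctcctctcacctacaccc
Saa2 promoter: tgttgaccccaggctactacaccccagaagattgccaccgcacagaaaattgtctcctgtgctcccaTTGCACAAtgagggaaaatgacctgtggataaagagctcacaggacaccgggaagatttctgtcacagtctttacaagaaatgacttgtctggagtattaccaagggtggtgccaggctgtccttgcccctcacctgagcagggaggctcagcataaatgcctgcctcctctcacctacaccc

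The 2 stretches were 94.8% identical, and the C/EBP pattern began 182 bases before the start of Saa1 and 183 bases before that of Saa2. Saa1 shared 48.9% of aligned positions with the promoter of Saa3 and 42.6% with that of Saa4. Of the 8 members with a promoter in the RefSeq table (Orm1 and Hp had no entry), 7 held TTGCNNAA and Apcs did not, while 9.56% of all 32851 promoters in the table held it. The 7 are not independent, since Saa1 and Saa2, and likewise Orm2 and Orm3 (85.5% identical), are related sequences with the match at nearly the same place. The STAT pattern TTCNNNGAA was found in Apcs alone (7.02% of all promoters) and the NF-kB core pattern in none of the 8 (1.41% of all). A letter match describes the sequence and is no evidence of binding.

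On CD, Saa1 was 178, 973, 20.3 and 13.3 RPKM in FF mice 1 to 4 and 19.1, 48.0, 16.8 and 37.1 RPKM in LKO mice 1 to 4. On HFD, it was 608, 89.6, 108, 73.4 and 105 RPKM in FF mice 1 to 5 and 61.4, 1434, 154, 37.2 and 796 RPKM in LKO mice 1 to 5. FF CD mouse 2 and LKO HFD mice 2 and 5 stood at the top, and the FF CD group spanned nearly the whole range of the series, while the 4 LKO CD mice stayed low and close together. The fitted log2 difference with HFD was 2.88 in LKO mice (95% interval 0.48 to 5.29, limma adjusted p = 0.147), where the ratio of the means was 16.4 and 19 of 20 mouse pairs were higher on HFD (exact permutation p = 0.0317). In FF mice it was 0.68 (interval -1.73 to 3.08, adjusted p = 0.723), with 11 of 20 pairs higher. Without LKO HFD mouse 2 the LKO difference was 2.19, and the FF difference ran from -0.18 without FF CD mouse 4 (adjusted p = 0.929) to 1.85 without FF CD mouse 2 (adjusted p = 0.249). The difference between these 2 diet responses was 2.21 (interval -1.19 to 5.60, adjusted p = 0.531), and 1.04 without FF CD mouse 2.

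Between genotypes, Saa1 had a fitted difference of -1.58 under CD (LKO minus FF, adjusted p = 0.867), with 6 of 16 mouse pairs higher in LKO. Leaving out FF CD mouse 2 brought that difference to -0.40. Under HFD the difference was 0.63 (adjusted p = 0.785), with 14 of 25 pairs higher in LKO. The order of the means was LKO HFD (496 ± 610 RPKM, SD, n = 5), FF CD (296 ± 458, n = 4), FF HFD (197 ± 231, n = 5) and LKO CD (30.3 ± 14.9, n = 4), and only the last step, from FF HFD to LKO CD, had ranges that did not overlap.

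Saa2, the close copy of Saa1, gave the same picture at a lower level. On CD, its values were 97.4, 827, 7.03 and 5.02 RPKM in FF mice 1 to 4 and 10.5, 26.4, 6.25 and 18.2 RPKM in LKO mice 1 to 4. On HFD, they were 163, 42.7, 70.4, 48.0 and 75.6 RPKM in FF mice 1 to 5 and 38.6, 776, 61.0, 12.4 and 682 RPKM in LKO mice 1 to 5. FF CD mouse 2 was here the highest of all, followed by LKO HFD mice 2 and 5. The fitted log2 difference with HFD was 2.95 in LKO mice (interval 0.28 to 5.62, adjusted p = 0.180), with 18 of 20 pairs higher on HFD (exact permutation p = 0.0476), and 0.69 in FF mice (interval -1.98 to 3.36, adjusted p = 0.749). The FF difference was 2.10 without FF CD mouse 2 (adjusted p = 0.221), -0.13 without FF CD mouse 3 and -0.27 without FF CD mouse 4. The ratio of Saa1 to Saa2 ran from 1.17 to 3.73 over the 18 mice with a median of 1.84, and r between the genes was 0.98 over all mice (rho 0.98, and 0.97 without the 2 mice farthest from the Saa1 median).

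Saa3, which is made largely outside hepatocytes, in macrophages and fat, and Saa4, the constitutive serum amyloid A, varied far less. Saa3 was 1.71 to 5.08 RPKM in FF CD, 3.04 to 6.18 in LKO CD, 2.64 to 6.65 in FF HFD and 4.68 to 6.66 in LKO HFD mice, and all groups overlapped. Its largest fitted difference was 0.38, with HFD in LKO mice (adjusted p = 0.382). The 8 Kupffer cell markers summed to 40.9 to 66.7 RPKM in CD mice and 56.5 to 115 RPKM in HFD mice, which overlap, and 3 of the 8 were called with HFD in FF mice and 1 in LKO mice. At an unadjusted p under 0.05, the same 6 of the 8 were higher with HFD in both genotypes, and 0 differed between the responses. The part of these cells in the Saa3 values was not tested. Saa4 was 87.7, 64.2, 97.8 and 94.9 RPKM in LKO CD mice 1 to 4 and 85.8, 118, 160, 133 and 214 RPKM in LKO HFD mice 1 to 5. LKO HFD mouse 5 was the highest of the series and LKO HFD mouse 1 lay inside the CD range. The Saa4 difference was 0.67 (SE 0.21, adjusted p = 0.070; 17 of 20 pairs higher on HFD, exact permutation p = 0.0635), and 0.83 without LKO HFD mouse 1, where it passed the test (adjusted p = 0.0179). In FF mice, with 84.4 to 117 RPKM on CD and 90.2 to 131 on HFD, it was 0.14 (adjusted p = 0.682).

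**Figure D4:**
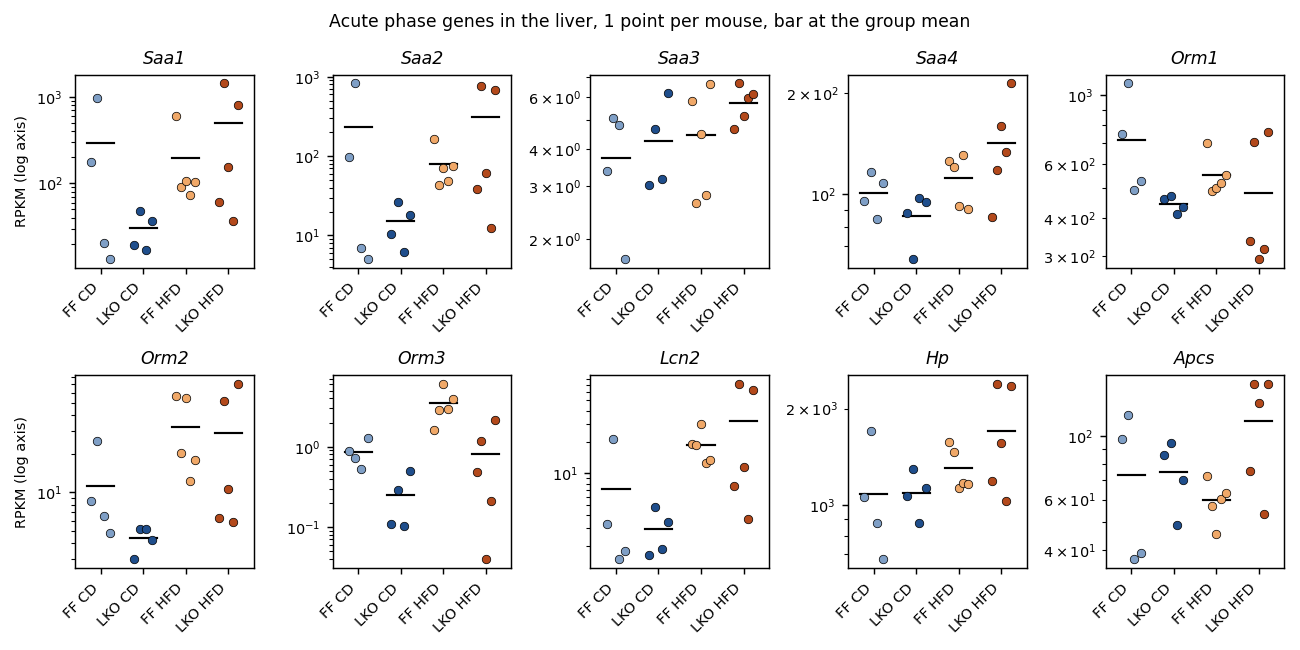
RPKM on a log axis for the 10 genes, 1 panel each, with 1 point per mouse in the groups FF CD (n = 4), LKO CD (n = 4), FF HFD (n = 5) and LKO HFD (n = 5), and a bar at the group mean. Orm3 on HFD lies above CD for every FF mouse, from 1.61 RPKM upward, while Saa1, Saa2 and Lcn2 split each of FF CD and LKO HFD into high and low mice.

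Orosomucoids are plasma glycoproteins that bind lipophilic compounds, and their 3 genes form a cluster on chromosome 4. Orm1 spans chr4:63344560-63348163, Orm3 chr4:63356162-63359511 and Orm2 chr4:63362449-63365878, all on the plus strand (GENCODE vM21, GRCm38). Coding identity was 89.9% between Orm1 and Orm2, 86.1% between Orm1 and Orm3 and 88.0% between Orm2 and Orm3, and Orm1 and Orm2 share a transcript stretch of 141 bases. Orm1 made up 89.2% to 99.3% of the summed RPKM of the 3 genes and Orm3 0.013% to 1.08%, so a small share of reads placed at the wrong copy could change Orm2 and Orm3. Orm3 was called and its neighbour Orm2 was not, but no test compared Orm2 with Orm3. With HFD in FF mice the fitted difference was 1.45 for Orm2 (interval 0.08 to 2.82) and 1.22 for Orm3. Between LKO and FF mice under HFD it was -0.59 for Orm2 (interval -1.89 to 0.70) and -1.36 for Orm3. The promoters of Orm2 and Orm3, printed because the call differed between these neighbours, are 85.5% identical. They come from chr4:63362199-63362448 for Orm2 and chr4:63355908-63356157 for Orm3, both on the plus strand (RefSeq, GRCm38.p6), and TTGCNNAA is again in capitals. Capitals also mark TATAAA, the usual core promoter element close to a start. In Orm2 they mark, besides, a match on the opposite strand to the glucocorticoid receptor pattern TGTTCT.
Orm2 promoter: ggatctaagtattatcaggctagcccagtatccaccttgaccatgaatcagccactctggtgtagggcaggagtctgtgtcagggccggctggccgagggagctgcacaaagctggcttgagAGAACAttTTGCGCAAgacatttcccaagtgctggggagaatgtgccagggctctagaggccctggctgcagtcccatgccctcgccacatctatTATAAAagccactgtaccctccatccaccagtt
Orm3 promoter: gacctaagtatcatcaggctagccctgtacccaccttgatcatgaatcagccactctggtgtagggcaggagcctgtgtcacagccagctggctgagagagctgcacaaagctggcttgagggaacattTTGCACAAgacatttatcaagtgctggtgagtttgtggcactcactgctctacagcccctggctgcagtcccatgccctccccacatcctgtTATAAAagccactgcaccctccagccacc

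Both held the C/EBP pattern, at 120 bases before the start in Orm2 and 121 in Orm3, and both held TATAAA, at 33 and 29 bases before the start. TATAAA was present in 12.4% of all promoters in the table. TGTTCT was in Orm2 and not in Orm3, and none of these matches overlapped another. That pattern was in 16.1% of all promoters.

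Orm3 on CD was 0.889, 0.721, 0.521 and 1.27 RPKM in FF mice 1 to 4 and 0.108, 0.286, 0.103 and 0.497 RPKM in LKO mice 1 to 4. On HFD it was 1.61, 2.89, 6.10, 2.99 and 3.95 RPKM in FF mice 1 to 5 and 0.483, 1.19, 0.040, 0.210 and 2.13 RPKM in LKO mice 1 to 5. Every FF mouse on HFD was above every mouse on CD, and LKO HFD mouse 5 alone among LKO mice reached into the FF HFD range. These values rest on few reads, an estimated 45.9 to 124 in FF HFD mice, 9.43 to 24.9 in FF CD mice and 1.03 to 40.2 in LKO mice. LKO CD mice 1 and 3 and LKO HFD mouse 3 lay under the floor of 3 reads.

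With HFD, Orm3 rose by a log2 difference of 1.22 in FF mice (SE 0.28, interval 0.63 to 1.81, limma adjusted p = 0.00529), a 4.12-fold ratio of means, with 20 of 20 mouse pairs higher on HFD. The exact permutation p was 0.0159, the smallest that 5 against 4 mice can give. Under HFD it was lower in LKO than in FF mice by -1.36 (SE 0.27, interval -1.92 to -0.80, adjusted p = 0.00747), with 1 of 25 pairs higher in LKO (exact permutation p = 0.0159). Both calls held with each of the 18 mice left out in turn, with differences of 1.04 to 1.40 and of -1.59 to -1.18. With a pseudocount of 0.1 in place of 1 both calls held, at 1.86 (adjusted p = 0.0368) and -2.48 (adjusted p = 0.0217). Both ended when Orm1, Orm2 and Orm3 were summed, where Orm1 sets the value (-0.24 and -0.33). In LKO mice the difference with HFD was 0.43 (interval -0.17 to 1.02, adjusted p = 0.393), and the difference between the FF and LKO responses was -0.80 (interval -1.63 to 0.04, adjusted p = 0.329), so a difference between the responses was not shown. Under CD the LKO mice lay below the FF mice in all 16 pairs (exact permutation p = 0.0286, the smallest that 4 against 4 can give), with a fitted difference of -0.56 (adjusted p = 0.720), or -1.54 with a pseudocount of 0.1 (adjusted p = 0.508). The ranges of FF HFD and FF CD, the top 2 groups, did not overlap, and those of FF CD, LKO HFD and LKO CD overlapped each with the next.

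Marker lists of some other liver cell types, like Orm3, had their highest median in FF HFD mice, among them stellate and endothelial cells. The neutrophil list did not (median sum 5.07 RPKM in LKO HFD and 3.95 RPKM in FF HFD mice). Nor did the list of recruited macrophages and monocytes (41.2 and 41.1 RPKM). The 7 stellate cell and fibroblast markers summed to 11.7 to 18.7 RPKM in FF CD, 12.3 to 25.3 in LKO CD, 19.2 to 38.5 in FF HFD and 10.4 to 19.8 RPKM in LKO HFD mice. The collagen genes Col1a1, Col1a2 and Col3a1 of that list rose with HFD in FF mice (0.94 to 1.21, adjusted p = 0.00452 to 0.0147) and were lower in LKO than in FF mice under HFD (-1.24 to -0.96, adjusted p = 0.0109 to 0.0334). The 5 endothelial markers summed to 12.0 to 25.4 RPKM in FF CD, 9.59 to 27.2 in LKO CD, 31.8 to 50.3 in FF HFD and 24.8 to 33.9 RPKM in LKO HFD mice. Of these 5, HFD in FF mice raised 3, and limma called 0 between genotypes under HFD, with 3, all lower in LKO mice, at an unadjusted p under 0.05. The part of these cell types in the Orm3 values was not tested.

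Orm2 was more abundant. On CD, its values were 8.52, 25.2, 6.54 and 4.83 RPKM in FF mice 1 to 4 and 2.99, 5.19, 5.19 and 4.28 RPKM in LKO mice 1 to 4. On HFD, they were 56.3, 20.2, 54.8, 12.3 and 17.9 RPKM in FF mice 1 to 5 and 6.26, 51.6, 10.6, 5.89 and 70.6 RPKM in LKO mice 1 to 5. All LKO HFD mice were above all LKO CD mice, mice 1 and 4 by little, and mice 2 and 5 stood well apart from the other 3. The fitted log2 difference with HFD was 1.80 in LKO mice (interval 0.42 to 3.17, adjusted p = 0.121; 20 of 20 pairs, exact permutation p = 0.0159) and 1.45 in FF mice (interval 0.08 to 2.82, adjusted p = 0.126; 17 of 20 pairs, exact permutation p = 0.0635). Between the responses it was 0.35 (interval -1.60 to 2.29, adjusted p = 0.891).

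Orm1, one of the most abundant members, did not show this pattern with the diet. On CD, its values were 752, 1095, 494 and 526 RPKM in FF mice 1 to 4 and 461, 470, 411 and 434 RPKM in LKO mice 1 to 4, and every LKO mouse lay below every FF mouse. On HFD, they were 700, 490, 502, 519 and 553 RPKM in FF mice and 337, 707, 294, 318 and 762 RPKM in LKO mice. LKO HFD mice 2 and 5 were at the top of the HFD mice, and the other LKO HFD mice were the lowest 3 of the series. The fitted difference between LKO and FF mice was -0.62 under CD (interval -1.22 to -0.01, adjusted p = 0.633; exact permutation p = 0.0286) and -0.31 under HFD (adjusted p = 0.542). With the diet it was -0.31 in FF mice and -0.002 in LKO mice (adjusted p = 0.456 and 0.997).

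Lipocalin 2, an iron-withholding protein made by hepatocytes in the acute phase and stored by neutrophils, lies on chromosome 2 (chr2:32384633-32388252, minus strand). On CD, Lcn2 was 3.29, 21.5, 1.502 and 1.80 RPKM in FF mice 1 to 4 and 1.65, 4.74, 1.87 and 3.45 RPKM in LKO mice 1 to 4. On HFD, it was 19.2, 18.9, 29.8, 12.7 and 13.5 RPKM in FF mice 1 to 5 and 7.65, 72.4, 11.5, 3.70 and 63.3 RPKM in LKO mice 1 to 5. All FF HFD mice were well above the CD mice except FF CD mouse 2, which was higher than 4 of the 5 FF HFD mice, and the LKO HFD mice ran from the LKO CD level to the highest of the series. For this gene the steps of the deposited values gave whole reads, 30 to 1535 per mouse.

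The fitted log2 difference of Lcn2 with HFD was 1.89 in FF mice (interval 0.38 to 3.41, adjusted p = 0.070; exact permutation p = 0.0794) and 2.34 in LKO mice (interval 0.82 to 3.85, adjusted p = 0.071; exact permutation p = 0.0317), where 19 of 20 pairs were higher on HFD. Both lay close to the threshold. The FF difference was 2.61 and passed without FF CD mouse 2 (adjusted p = 0.0146), and the LKO difference, unchanged at 2.34, passed as well (adjusted p = 0.0473). With that mouse kept, the FF difference passed without LKO HFD mouse 2 (adjusted p = 0.0487) or mouse 4 (adjusted p = 0.0448), with RPKM rescaled to the same sum (1.98, adjusted p = 0.0440) and with only the FF groups fitted (adjusted p = 0.0360). The LKO difference also passed without LKO HFD mouse 4 (2.84, adjusted p = 0.0370) or mouse 1 (2.62, adjusted p = 0.0484). Between LKO and FF mice Lcn2 differed by -0.45 under CD (interval -2.05 to 1.15, adjusted p = 0.960) and by -0.005 under HFD (interval -1.43 to 1.42, adjusted p = 0.998). The 10 neutrophil markers, of which S100a8 and S100a9 passed the filter, summed to 1.22 to 2.38 RPKM in CD mice and 2.30 to 8.29 RPKM in HFD mice, and Ly6g was listed at 0 in 16 of 18 mice. FF CD mouse 2, the highest for Lcn2 on CD, had the lowest of these sums (1.22), and LKO HFD mouse 5, the second highest for Lcn2, had 6.85. S100a9 rose with HFD in FF mice (0.77, adjusted p = 0.0133) and S100a8 in LKO mice (0.91, adjusted p = 0.0406), and their part in the Lcn2 values was not tested.

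Haptoglobin was the most abundant member. On CD, Hp (chr8:109575128-109579172, minus strand) was 1059, 1701, 880 and 675 RPKM in FF mice 1 to 4 and 1065, 1292, 877 and 1131 RPKM in LKO mice 1 to 4. On HFD, it was 1576, 1468, 1125, 1167 and 1164 RPKM in FF mice 1 to 5 and 1191, 2396, 1558, 1026 and 2357 RPKM in LKO mice 1 to 5. LKO HFD mice 2 and 5 were the highest of the series, FF CD mouse 2 came next, and all groups overlapped. The fitted difference with HFD was 0.57 in LKO mice (interval 0.02 to 1.12, adjusted p = 0.205; 16 of 20 pairs higher) and 0.34 in FF mice (interval -0.21 to 0.89, adjusted p = 0.387; 15 of 20 pairs higher). The difference between the responses was 0.23 (interval -0.54 to 1.01, adjusted p = 0.798).

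Serum amyloid P component, the mouse pentraxin that behaves as the major acute phase reactant of this species, was followed by Apcs (chr1:172893961-172895041, minus strand). Under HFD it was 72.5, 56.9, 45.5, 60.3 and 63.1 RPKM in FF mice 1 to 5 and 75.7, 152, 130, 53.3 and 151 RPKM in LKO mice 1 to 5. LKO HFD mice 1, 2, 3 and 5 were above every FF HFD mouse, mouse 1 by little, and mouse 4 lay within the FF range. The fitted difference, LKO minus FF, was 0.81 (interval 0.12 to 1.498, adjusted p = 0.188), with 21 of 25 pairs higher in LKO (exact permutation p = 0.0635). Under CD, with 37.1 to 118 RPKM in FF and 49.1 to 94.8 in LKO mice, it was 0.18 (interval -0.59 to 0.95, adjusted p = 0.964). The diet gave 0.51 in LKO mice and -0.12 in FF mice (adjusted p = 0.411 and 0.847).

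The order of the 4 groups by mean RPKM differed between members, and most neighbours in these orders had overlapping ranges. LKO HFD came first for Lcn2 (31.7 ± 33.3 RPKM, SD, n = 5), before FF HFD (18.8 ± 6.84, n = 5), FF CD (7.02 ± 9.67, n = 4) and LKO CD (2.93 ± 1.45, n = 4), and each range overlapped the next. For Orm2, FF HFD (32.3 ± 21.4 RPKM, n = 5) and LKO HFD (29.0 ± 30.1, n = 5) were the upper groups and FF CD (11.3 ± 9.42, n = 4) and LKO CD (4.42 ± 1.04, n = 4) the lower ones, again with overlap at each step. Hp had the same upper groups as Lcn2, with 1705 ± 642 RPKM in LKO HFD and 1300.3 ± 207 in FF HFD mice (n = 5 each), and LKO CD (1091 ± 172) and FF CD (1079 ± 444) lay side by side (n = 4 each). Apcs was the only member whose lowest mean was in FF HFD mice (59.7 ± 9.82 RPKM, n = 5), below FF CD (73.0 ± 41.2, n = 4), LKO CD (75.0 ± 20.1, n = 4) and LKO HFD (113 ± 45.4, n = 5). Orm1 was the only one with its highest mean in FF CD mice (716 ± 277 RPKM, n = 4), and for 7 of the 10 members LKO CD had the lowest mean.

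The genes whose pattern over the 18 mice was most like each member's were taken as the 3 non-members with the highest Pearson's r. For Hp the first was Hpx, hemopexin, which binds free haem (r = 0.93, rho 0.92, and 0.95 within groups), and Hpx also came first for Saa1 (0.84) and Saa2 (0.83). Fgl1, a hepatocyte acute phase protein of the fibrinogen family, was the third for Saa1 (0.82, and 0.68 without the 2 mice farthest from the Saa1 median). Saa4 was most like Serpina3n, a protease inhibitor (0.83), followed by Fam222b (0.81) and Steap4, a metalloreductase (0.80). Apcs was most like Serpina10, the inhibitor of activated coagulation factor X (0.87), and Mvd, an enzyme of sterol synthesis (0.86). Orm3 was most like Tmem184c (0.91) and Lcn2 most like Ccdc77 (0.83) and Jak3, a cytokine receptor kinase (0.82). For Orm1 (Mup18, 0.72), Orm2 (Slc13a3, 0.76) and Saa3 (Sars, 0.72) the highest r was lower. The points share libraries and groups, and the leading genes were picked as the highest of all genes tested, so the coefficients only rank.

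Signals and factors upstream of these genes were compared from lists. Of 21 tested genes of the IL-6, IL-1 and STAT3 pathway, HFD in FF mice raised 1, Il1b, the cytokine interleukin 1 beta (0.96, SE 0.24, adjusted p = 0.00882), and lowered 1, Lifr, the leukaemia inhibitory factor receptor (-1.20, SE 0.15, adjusted p = 4.09e-05). HFD in LKO mice raised 2 of the 21 and lowered 0. These were Stat3, the transcription factor of the pathway (0.996, SE 0.23, adjusted p = 0.0266), at 11.7 to 14.1 RPKM in LKO CD and 15.8 to 41.2 RPKM in LKO HFD mice, and the adaptor Myd88 (0.63, SE 0.13, adjusted p = 0.0208). Between genotypes under HFD, Lifr was higher in LKO mice (0.90, SE 0.14, adjusted p = 0.00117) and no other gene of the list was called. At an unadjusted p under 0.05, 7 of the 21 were higher in LKO mice and 0 lower. Stat3 was among these 7, at 14.1 to 22.5 RPKM in FF HFD and 15.8 to 41.2 RPKM in LKO HFD mice. Il6ra, the IL-6 receptor, had differences of -0.43 to 0.39 over the 4 comparisons, none called, and Il6st, its signalling chain gp130, was higher with HFD in LKO mice by 0.57 (adjusted p = 0.0407), under the fold threshold. Il6 itself was listed at 0 in 13 of 18 mice and reached at most 0.069 RPKM.

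Among 14 transcription factors of acute phase genes, HFD raised Atf3 (0.73, adjusted p = 0.00298) and Egr1 (0.86, adjusted p = 0.0397) in FF mice and Egr1 (1.80, adjusted p = 0.00833) and Stat3, which stands in both lists, in LKO mice. Both Atf3 and Egr1 are early stress-response factors. Egr1 was also higher in LKO than in FF mice under HFD (1.02, adjusted p = 0.0403). No other factor was called. Between genotypes under HFD, 7 of the 14 had an unadjusted p under 0.05, of which 4 were higher and 3 lower in LKO mice. Cebpb and Cebpd, the C/EBP factors of the response, differed by 0.22 and 0.46 with HFD in FF mice and by 0.02 and -0.09 in LKO mice, and by -0.36 and -0.50 between LKO and FF mice under HFD. Nr3c1, the glucocorticoid receptor, differed by -0.14 to 0.10 over the 4 comparisons. Under CD limma called 0 of the 21 and 0 of the 14 genes between genotypes, with 1 in each list, Lifr and Foxa2, at an unadjusted p under 0.05.

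Of 24 other positive acute phase genes tested, HFD in FF mice raised 5 and lowered 1. Those raised were led by the metallothioneins Mt2 (2.99, SE 0.63, adjusted p = 0.00299) and Mt1 (2.84, SE 0.62, adjusted p = 0.00351) and by Il1rn, the interleukin 1 receptor antagonist (1.33, SE 0.17, adjusted p = 4.63e-05). The 1 that fell was Hamp, hepcidin, the regulator of iron uptake (-1.53, SE 0.35, adjusted p = 0.00479). HFD in LKO mice raised 8 of the 24 and lowered 0, with Mt2 at 3.27 (adjusted p = 0.0170), Mt1 at 2.93 (adjusted p = 0.0208) and Il1rn at 0.82 (adjusted p = 0.0197). Between LKO and FF mice under HFD 6 of the 24 were higher and 0 lower, and under CD limma called 0, with 2 at an unadjusted p under 0.05. Of all genes tested, limma called 6.6% with HFD in FF mice, 1.27% with HFD in LKO mice and 2.07% between genotypes under HFD. The medians of these 24 genes were -0.01 with HFD in FF mice, 0.64 in LKO mice and 0.55 between LKO and FF mice under HFD. Over all genes tested these medians were 0.07, 0.07 and 0.03.

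**Figure D5:**
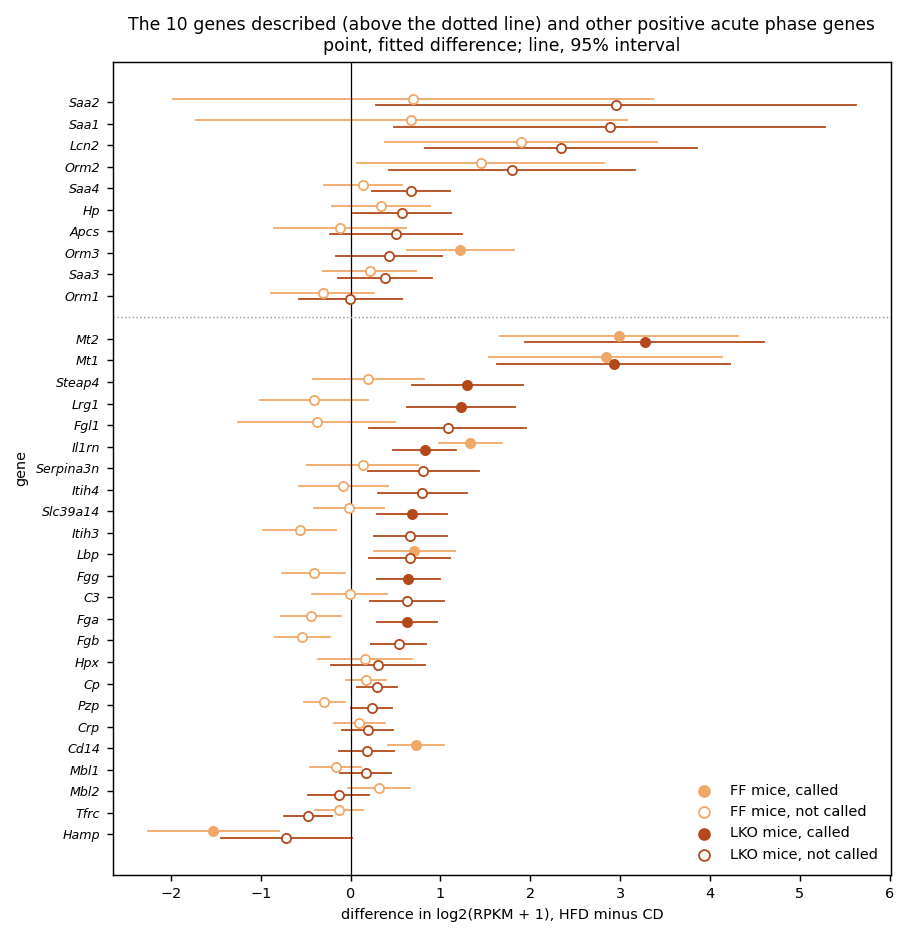
Fitted difference in log2(RPKM + 1), HFD minus CD, with its 95% interval, for the 10 genes described (above the dotted line) and the 24 other positive acute phase genes tested, in FF mice (light) and LKO mice (dark), with filled points for called genes. Orm3 is filled in FF mice alone among the 10, while 6 of the 24 are filled in FF mice and 8 in LKO mice. Of all genes tested, 6.6% were called in FF mice and 1.27% in LKO mice.

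Of 15 negative acute phase genes, which fall in an acute phase response, HFD in FF mice lowered 3 and raised 0: Apoa1, the main protein of high-density lipoprotein (-0.72, SE 0.15, adjusted p = 0.00276), Ahsg, fetuin A (-0.61, SE 0.12, adjusted p = 0.00156), and Fetub, fetuin B (-0.60, SE 0.12, adjusted p = 0.00163). In LKO mice limma called 0 of the 15 with HFD. At an unadjusted p under 0.05, 4 of the 15 were lower with HFD and 0 higher, in each genotype. Apoa1 (0.64, adjusted p = 0.0169) and Ahsg (0.60, adjusted p = 0.00503) were higher in LKO than in FF mice under HFD. Of 11 glucocorticoid response genes, Cdkn1a, the p21 cell cycle inhibitor, rose with HFD in FF mice (2.01, SE 0.23, adjusted p = 1.29e-05). In LKO mice Fkbp5, a receptor chaperone, rose with HFD (0.95, SE 0.26, adjusted p = 0.0478). Most of the list went the other way there, with 2 of 11 above 0 and a median of -0.45 (-0.14 with HFD in FF mice). Of 6 genes at an unadjusted p under 0.05 with HFD in LKO mice, 4 were lower. Under HFD, Cdkn1a (-1.24, adjusted p = 0.00256) and Dusp1, a phosphatase of MAP kinases (-1.496, adjusted p = 9.95e-05), were lower in LKO than in FF mice.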

How the data were processed

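Total RNA from the liver of 18 mice was sequenced. The authors aligned the reads to mm10, and the submitters' processing notes name HISAT2 2.0.4 and Partek. The deposited values are RPKM per gene symbol, made by the authors. The gene model, the strand setting and the handling of reads shared by several genes are not given in the sources used here. The labels name a small RNA library kit beside a standard RNA-seq protocol, and which one applied is not clear. Groups came from the sample titles. limma 3.58.1 (R 4.3.3; lmFit, contrasts.fit, eBayes with trend) was fitted to log2(RPKM + 1) of all 18 mice and 11090 genes that averaged 0.5 RPKM or more, with 1 coefficient per group. Two-sided p-values were adjusted by Benjamini-Hochberg over all genes tested, and genes were called at a fold change above 1.5 and an adjusted p under 0.05. Two-sided exact permutation tests over mice (scipy 1.17.1) are unadjusted. On this scale the fold of low genes is understated. Depth was read from the steps of RPKM under 0.2 in 2443 single-exon genes. The reads behind a member, estimated from its annotated length, cover counting error only. The script was tested on simulated data. The members, gene lists and tests were chosen with earlier results of these data known. From each list at most 4 called genes with the largest difference were named, together with Il6ra, Il6st, Stat3, Cebpb, Cebpd and Nr3c1, and 1 further gene of that rule is not reported here. Other genes were named after their values were seen.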

Additional observations from a re-analysis of the deposited data

Results flagged for a closer look

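In 4 cases a member's value stood far from the other mice of its group by Dixon's test at the 95% level. Saa1 in FF HFD mouse 1 was 608 RPKM, against 73.4 to 108 RPKM in the other 4 mice, and Saa2 in the same mouse was 163 RPKM against 42.7 to 75.6 RPKM. Saa2 in FF CD mouse 2 was 827 RPKM, against 5.02 to 97.4 RPKM in the other 3 mice, and Lcn2 in that mouse was 21.5 RPKM against 1.502 to 3.29 RPKM. These were 4 of 40 groups of RPKM values tested, and chance marks about 1 in 20 where values are normally distributed. On log2(RPKM + 1) only 1 of the 4, Saa1 in FF HFD mouse 1, stood past the limit, and no other group did. Saa1 and Saa2 are near copies, so their values in 1 mouse are not independent.

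The pathway lists held 8 genes that responded to HFD differently in LKO and FF mice by the test of the difference itself. These lists, which overlap, had 21, 14, 24, 15 and 11 genes tested, and 2.44% of all genes tested were called in this comparison. Of the 10 members 0 were called, but the intervals of some were wide (-1.19 to 5.60 for Saa1), so equal responses were not shown. Values are log2 differences, LKO minus FF, with the limma adjusted p. Lifr gave 1.47 (SE 0.21, adjusted p = 0.000698). Among the other positive acute phase genes the difference was 1.07 for Fga (adjusted p = 0.0134), 1.07 for Fgb (adjusted p = 0.00734), 1.06 for Fgg (adjusted p = 0.0193), 1.23 for Itih3 (adjusted p = 0.0184) and 1.63 for Lrg1 (adjusted p = 0.0364). It was 0.79 for Ahsg (adjusted p = 0.0136) and -1.45 for Cdkn1a (adjusted p = 0.0182).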

How the results depend on the processing

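The results were recomputed with a pseudocount of 0.1, other filters on low values, RPKM rescaled to the same sum, quantile normalization, a fit of only the groups compared, the replicate number as a block, near-identical genes summed, the adjusted p alone, and each mouse left out. Of 1265 recomputed member differences 1217 kept their direction and side of the threshold. Another 37 turned direction, 10 passed, and 1 no longer passed without turning, and the causes were not tested. Many of these could not turn: another filter, or a mouse left out of a group not compared, leaves a difference unchanged and moves only its adjusted p. Both member calls, those of Orm3, ended with the Orm genes summed, 1 of them with its direction turned. A pseudocount of 0.1 kept both and moved them from 1.22 to 1.86 and from -1.36 to -2.48. The number of members called with HFD in FF mice went from 1 to 2 (adding Lcn2) with rescaling and with only the groups compared, and ranged from 1 to 2 with mice left out. In LKO mice it went from 0 to 1 with the replicate block, where Lcn2 gave 2.17 (adjusted p = 0.0461), and ranged from 0 to 2 with mice left out. Same-numbered mice deviated together by r of -0.17 to 0.33 over 25 pairs, with 10 above 0.1. Mice with different numbers were not compared, so whether the numbers pair the mice cannot be told. The block changed no other call. Rescaling turned Orm1 in LKO mice on HFD from -0.002 to 0.015, and quantile normalization turned the Hp difference between responses from 0.23 to -0.045. With Orm1, Orm2 and Orm3 summed, the row gave -0.24 for HFD in FF mice (Orm2 and Orm3 turned), 0.051 for HFD in LKO mice (Orm1 turned), -0.33 between genotypes under HFD (Orm3 no longer called) and 0.30 between responses (Orm3 turned), since Orm1 sets the sum. With mice left out, differences turned direction as follows. With HFD in FF mice Apcs ran from -0.37 to 0.17, Saa1 from -0.18 to 1.85, Saa2 from -0.27 to 2.10 and Saa3 from -0.036 to 0.35. With HFD in LKO mice Orm1 ran from -0.20 to 0.14. Between genotypes under CD Apcs ran from -0.077 to 0.47, Hp from -0.11 to 0.33, Lcn2 from -0.79 to 0.26 and Saa3 from -0.071 to 0.32. Between genotypes under HFD Lcn2 ran from -0.49 to 0.50, Saa1 from -0.060 to 1.25 and Saa2 from -0.062 to 1.40. Between responses Hp ran from -0.015 to 0.43, Lcn2 from -0.27 to 0.95 and Orm2 from -0.14 to 0.70. Depth limits Orm3 most, at 1.03 to 124 estimated reads per mouse, and Saa3 next, at 24.04 to 119.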

Other observations

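The 3 fibrinogen chains Fga, Fgb and Fgg, the clotting protein of plasma and itself a positive acute phase protein of the liver, were chosen after their values were seen. Fga was 952 to 1276 RPKM in FF CD, 925 to 976 in LKO CD, 700 to 958 in FF HFD and 930 to 1828 RPKM in LKO HFD mice. LKO HFD mouse 1 was the low mouse of its group, and the other 4 lay above every other mouse of the series. With HFD, Fga rose in LKO mice by 0.63 (SE 0.16, limma adjusted p = 0.0398) and gave -0.44 in FF mice (adjusted p = 0.0555). Under HFD it was higher in LKO than in FF mice by 0.85 (SE 0.15, adjusted p = 0.00361), as were Fgb (0.91, SE 0.14, adjusted p = 0.000957) and Fgg (0.86, SE 0.16, adjusted p = 0.00436).

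LKO HFD mice 3 and 4 had the highest Fga values of the series, 1828 and 1652 RPKM, and Saa1 values of 154 and 37.2 RPKM. LKO HFD mice 2 and 5 had 1427 and 1638 RPKM of Fga with 1434 and 796 RPKM of Saa1. For the other chains LKO HFD mouse 5 was the highest, at 3068 RPKM of Fgb and 2094 RPKM of Fgg, and FF CD mouse 2 was the highest CD mouse for all 3 chains. Lrg1, a leucine-rich plasma glycoprotein, was 52.8 to 81.3 RPKM in LKO CD and 82.1 to 251 RPKM in LKO HFD mice and rose by 1.23 (SE 0.29, adjusted p = 0.0294). Crp, which is no strong acute phase gene in the mouse, was 111 to 205 RPKM in all 18 mice.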
